A study of Mus musculus with 6 samples.

Results

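Syndecans and glypicans are the cell-surface heparan sulfate proteoglycans, and 8 of their genes (Sdc1, Sdc2, Sdc3, Sdc4, Gpc1, Gpc3, Gpc4 and Gpc6) were followed here among 18193 mouse genes. They were read through all 22 probe sets that carried one of these symbols alone, out of 45101 probe sets on the array. The family was chosen because Sdc4 was among the genes highest with miR-7 in MIN6 cells, so the values of all 8 genes in that comparison are given as a description, with no test.

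The study measured RNA on 6 Affymetrix mouse arrays. MIN6, an insulin-secreting line derived from mouse beta cells, received an adenovirus carrying miR-7a (AdmiR7a, 2 arrays), miR-7b (AdmiR7b, 1 array) or green fluorescent protein (AdGFP, 1 array). The virus dose was 250 per cell (MOI), the exposure 48 h, the glucose 4.5 g/l and the serum 2%. Pancreatic islets of C57BL/6 mice had miR-7a2 deleted from beta cells with Lox/Cre (KO, 1 array) or intact (WT, 1 array); the age of the mice, the Cre driver and the number of animals behind each array are not given in the sources used here. Every MIN6 group was infected, so no group shows uninfected cells, and the KO leaves the gene intact in the other islet cells.

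A syndecan spans the membrane and ends in a short cytoplasmic tail that binds scaffold and signalling proteins, whereas a glypican is held in the outer membrane leaflet by a glycosylphosphatidylinositol anchor. Both carry heparan sulfate, a sulfated sugar chain that binds growth factors, chemokines, morphogens and matrix proteins and presents them to their receptors. Heparan sulfate is abundant in the beta cells of mouse islets.

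The sequences behind the comparisons are those of the microRNAs, taken from RefSeq (GRCm38.p6), with the seed (bases 2 to 8), the part that pairs with targets, in capitals. miR-7a is encoded by Mir7-2, the gene deleted in the KO (mature sequence at chr7:78888295-78888317, plus strand), and with the same mature sequence by Mir7-1 (chr13:58392841-58392863, minus strand), which the KO leaves in place. miR-7b comes from Mir7b (chr17:56243017-56243040, plus strand).
miR-7a: uGGAAGACuagugauuuuguugu
miR-7b: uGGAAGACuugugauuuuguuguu
Counted from the 5′ end of miR-7a, the microRNAs differ by 1 substitution, A10U, and by 1 more base at the 3′ end of miR-7b; the seed is the same. The hairpin of Mir7-2 (chr7:78888277-78888373, plus strand) is shown because it is the RNA that the KO removes, with mature miR-7a, its bases 19 to 41, in capitals.
Mir7-2 hairpin: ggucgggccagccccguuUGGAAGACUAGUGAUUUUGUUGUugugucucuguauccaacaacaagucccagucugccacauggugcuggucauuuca
Mature miR-7 itself was not measured on these arrays, so neither its overexpression nor its loss could be checked.

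All values are log2 probe set intensities. The lowest value in the table, 2.17, was shared by 28.2% to 29.7% of probe sets on each array, and a value of 4 was used as the level under which a probe set was treated as near background. Probe sets of different genes differ in affinity, so levels are compared between samples and never between genes. The beta-cell genes Ins2 and Iapp were at 15.7 or more on all 6 arrays, while the glucose transporter gene Slc2a2 was below 4 on all MIN6 arrays (2.52 on the 3 miR-7 arrays and 3.84 on AdGFP, against 14.5 in KO and 14.1 in WT islets). Ptprc, a marker of leukocytes, was at 2.17 in MIN6, against 7.74 in KO and 7.57 in WT islets, and the endothelial marker Cdh5 was at 2.17 in MIN6, against 7.81 in KO and 7.68 in WT islets. Some other markers were present in MIN6, among them Gcg of alpha cells (12.7 to 13.4), Sst of delta cells (9.28 to 9.64), Krt7 of duct cells (11.6 to 11.8) and the endothelial Esam (7.38 to 8.23). Gcg was higher in KO and WT islets, at 16.28 and 16.38, and so was Sst, at 14.71 and 14.74. Krt7 (13.63 and 13.68) and Esam (8.38 and 8.86) were higher there too. The rest of each list did not all follow. On some MIN6 array 2 of 3 measured alpha cell, 3 of 4 delta and PP cell, 2 of 6 endothelial and 1 of 3 measured ductal markers reached 4. The ductal markers Krt19 (2.68) and Sox9 (2.23) stayed below 4 in MIN6.

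Of the 22 probe sets, 7 were below 4 on all 6 arrays, 7 at or above it on all 6 and 8 on some arrays. Every gene except Gpc3 had at least 1 probe set at or above 4 on some array. Gpc3, which encodes a glypican of fetal tissues that restrains Hedgehog signalling, had a single probe set (1450990_at) at 2.36 on all 6 arrays, so no difference could be measured for it.

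**Figure D1:**
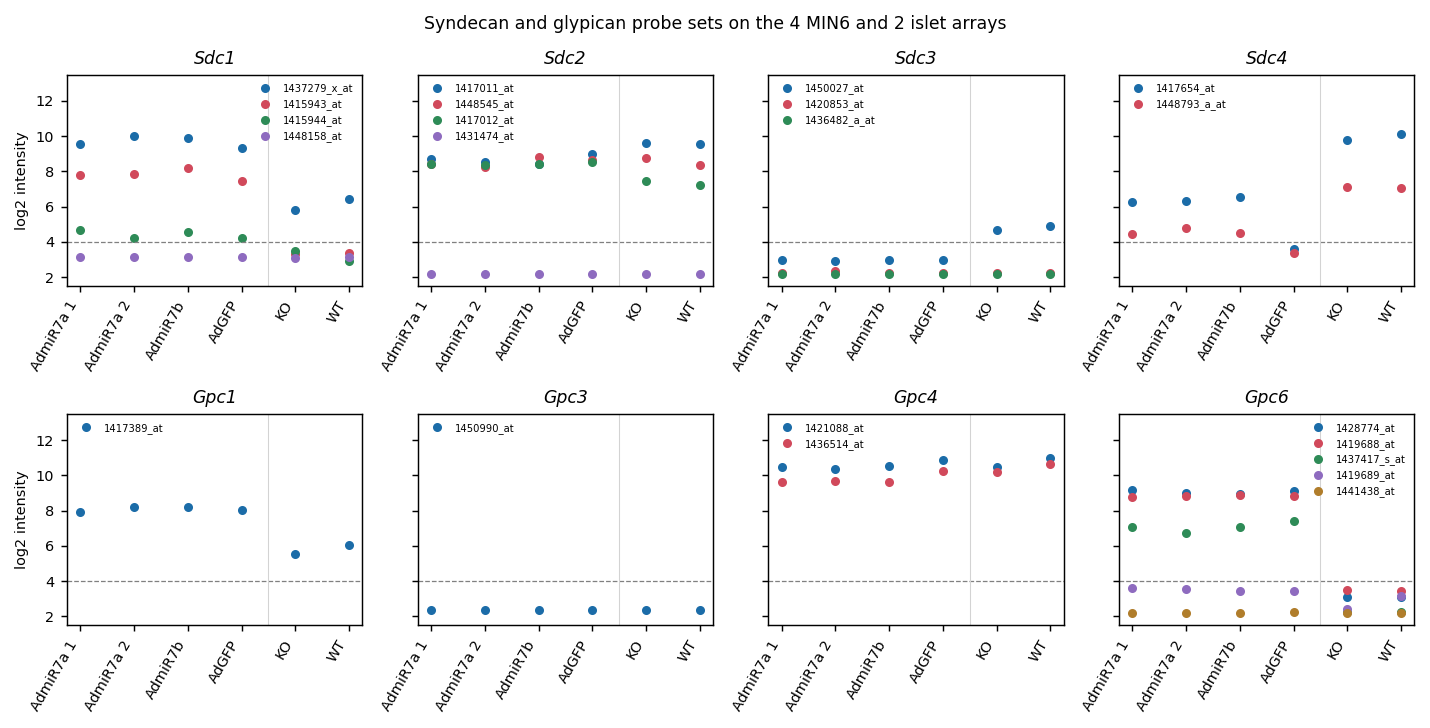
Each panel plots the log2 intensity (vertical axis) of every probe set of one gene on each array (horizontal axis), with miR-7 arrays left of AdGFP and KO left of WT; each colour is a probe set, each point 1 array, and the dashed line is the level of 4. Sdc4 is lowest on AdGFP, Gpc6 is above 4 only in MIN6, and Gpc3 lies at 2.36 everywhere.

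The miR-7 vectors ask which transcripts of a beta cell line respond to the microRNA, and among the members Sdc4 stood apart in size. Sdc4, the syndecan of focal adhesions that binds protein kinase C alpha, had values of 6.28 and 6.33 with AdmiR7a and 6.55 with AdmiR7b, against 3.59 with AdGFP (probe set 1417654_at). All 3 miR-7 arrays were far above the AdGFP array, which was itself below 4. The miR-7 arrays averaged 6.39 ± 0.14 (SD, n = 3), a difference of 2.79 or 6.93-fold, and the gene ranked 10 from the top of 10368 genes. The fold rests on an AdGFP value near background.

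The second Sdc4 probe set, 1448793_a_at, gave a smaller difference. It read 4.47 and 4.81 with AdmiR7a and 4.48 with AdmiR7b, against 3.37 with AdGFP, a difference of 1.22 or 2.32-fold. Both probe sets were higher on every miR-7 array, and both AdGFP values were below 4, so neither size is exact.

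Sdc1, the syndecan of epithelial cells and plasma cells, was also higher on the miR-7 arrays, by less than 1 on this scale. Its probe set 1437279_x_at read 9.58 and 10.002 with AdmiR7a and 9.91 with AdmiR7b, against 9.36 with AdGFP. A second, 1415943_at, read 7.81, 7.86 and 8.20 on the same miR-7 arrays, against 7.45 with AdGFP. On both probe sets the miR-7 arrays lay above AdGFP, by 0.47 and 0.50 on average. On 1415944_at, at 4.24 to 4.67 in MIN6, AdmiR7a replicate 2 equalled AdGFP, and 1448158_at stayed below 4.

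Sdc2, a syndecan typical of mesenchymal cells, was slightly lower with miR-7, and its probe sets did not all give that direction. Probe set 1417011_at read 8.73 and 8.55 with AdmiR7a and 8.41 with AdmiR7b, against 8.97 with AdGFP, a mean difference of -0.41. Probe set 1417012_at differed by -0.14. On 1448545_at the AdmiR7a arrays (8.41 and 8.27) were below AdGFP (8.63) and the AdmiR7b array (8.83) above it. The fourth, 1431474_at, was at the floor of the table on all 6 arrays.

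Sdc3, the syndecan first known from the nervous system, stayed below 4 in MIN6 on all 3 of its probe sets, at 2.93 to 2.95 with the miR-7 vectors and 2.95 with AdGFP on the brightest, 1450027_at. It was therefore not measurable in these cells.

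Among the glypicans, Gpc4, which promotes the formation of synapses in the mouse brain, was lower on the miR-7 arrays with both of its probe sets. Probe set 1421088_at read 10.48 and 10.36 with AdmiR7a and 10.54 with AdmiR7b, against 10.85 with AdGFP, and 1436514_at read 9.64, 9.70 and 9.61 on the same miR-7 arrays, against 10.28 with AdGFP. The differences were -0.39 and -0.63, and no miR-7 array reached the AdGFP value.

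Gpc1, a glypican that binds FGF2, was at 7.95 and 8.21 with AdmiR7a and 8.24 with AdmiR7b, against 8.06 with AdGFP. The AdGFP value lay among the miR-7 values, with a mean difference of 0.07. Gpc6, mutated in a human disorder of bone growth, showed differences of -0.09 on 1428774_at and 0.01 on 1419688_at. Another probe set, 1437417_s_at, read 7.09, 6.75 and 7.07 with the miR-7 vectors, against 7.42 with AdGFP (-0.45), so the Gpc6 probe sets did not move alike.

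Taking the probe set of each gene with the highest mean in MIN6, 6 of the 8 members had a mean of at least 4. Of these 6, 1 gene, Sdc4, was at least 1 (log2) higher on each of the 3 miR-7 arrays, where 2.15% of all genes were, and 0 were that much lower, where 2.04% were; the family was chosen on this comparison, so nothing is read from these counts. All 3 miR-7 arrays were above AdGFP for Sdc1 and Sdc4, as for 46.5% of all genes, and below it for Sdc2 and Gpc4, as for 32.9%. The median difference of the 6 was -0.01, against 0.06 over all genes. All these differences rest on 1 AdGFP array. The hybridisation controls averaged 0.17 higher on the miR-7 arrays than on AdGFP; their part in the differences was not tested.

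**Figure D2:**
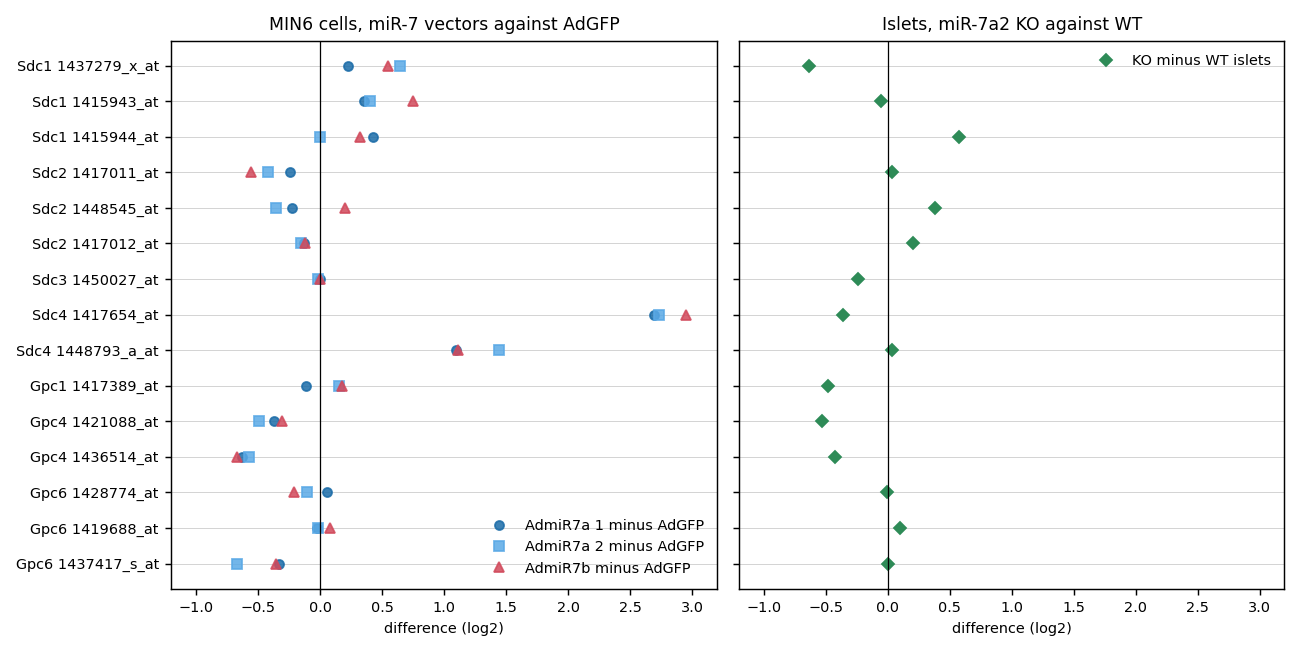
Differences (log2, horizontal axis) for the 15 probe sets at or above 4 on at least 1 array; the left panel gives each miR-7 array minus AdGFP in MIN6 cells, with 1 symbol per array, and the right panel the single KO array minus the single WT array of islets. The Sdc4 probe sets lie at 1.10 to 2.95 in MIN6 and at -0.36 and 0.03 in islets, and both Gpc4 probe sets lie left of 0 in both panels.

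AdmiR7b was compared with AdmiR7a because the mature sequences differ outside the seed, and no member passed the test between these vectors. The intervals below are for the brightest probe set of each gene, and other probe sets gave other sizes. Fitted over all probe sets, Sdc2 differed by 0.49 on 1448545_at (95% interval 0.10 to 0.88) and Sdc1 by 0.37 on 1415943_at (0.11 to 0.63). These intervals leave out 0, unlike those of the brightest probe sets below. They are not adjusted for the number of probe sets, and neither probe set passed the test. The second Sdc4 probe set, 1448793_a_at, gave -0.16. For Sdc2 and Sdc4 these signs are opposite to those of the brightest probe set. Sdc4 was 0.24 ± 0.07 higher with AdmiR7b than with AdmiR7a (SE; limma, adjusted p = 0.737, unadjusted p = 0.0542), with a 95% interval of the difference from -0.01 to 0.49. For Sdc1 the difference was 0.11 (interval -0.74 to 0.96), for Sdc2 -0.23 (-0.65 to 0.19), for Gpc1 0.15 (-0.41 to 0.72), for Gpc4 0.12 (-0.20 to 0.45) and for Gpc6 -0.18 (-0.57 to 0.21). Limma called 0 of 10368 genes here, 0% of them, with 608 genes (5.86%) at an unadjusted p under 0.05 and 1 residual degree of freedom, so these intervals, and not the missing calls, show what the arrays can tell apart.

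Deletion of miR-7a2 is the opposite change in intact tissue, with 1 array per genotype and therefore no test. Sdc4 was high in both, at 9.79 in KO and 10.15 in WT islets on 1417654_at, and at 7.11 in KO and 7.08 in WT on 1448793_a_at. The probe sets gave differences of -0.36 and 0.03. The first is smaller than the 2.79 seen with the vectors in MIN6, and the second is near 0.

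The glypican genes measurable in islets were lower in the KO array. Gpc4 read 10.49 in KO against 11.02 in WT islets on 1421088_at and 10.20 against 10.62 on 1436514_at. Gpc1 read 5.55 in KO against 6.04 in WT. Gpc4 was thus lower both in the KO array and on the miR-7 arrays in MIN6, where the labels give opposite changes of miR-7.

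Sdc1 was at 5.81 in KO against 6.44 in WT islets on 1437279_x_at, and its other probe sets were below 4 in islets. Sdc2 was at 9.60 in KO and 9.57 in WT on 1417011_at, and 0.38 and 0.21 higher in KO on 1448545_at and 1417012_at. Sdc3 was measurable only in islets, at 4.67 in KO and 4.91 in WT on 1450027_at, with its other probe sets at 2.23 or less. Gpc6 was below 4 in both genotypes on all 5 probe sets.

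Of the 6 members with a mean of at least 4 in islets, 5 were lower and 1 higher in KO, with a median of -0.42, against -0.03 over all genes; 54.5% of 10567 genes were lower in KO by any amount. A log2 size of 1 was passed by 0 of the 6 members and by 2.65% of all genes. The endothelial markers, all 6 of which were above 4 in islets, averaged 8.31 in KO and 8.63 in WT islets, and the 4 immune markers 7.85 in KO and 7.67 in WT. Among the endothelial markers Cdh5 and Kdr were slightly higher in KO. The 3 measured ductal markers averaged 6.77 in KO and 6.20 in WT, carried by Krt19 (4.45 and 2.68), with Krt7 at 13.63 and 13.68. The 3 acinar markers averaged 4.37 in KO and 4.66 in WT, but Cela1, the 1 above 4, was at 8.04 and 8.02. The 6 stellate markers, 2 of them above 4, averaged 4.48 in KO and 4.67 in WT. The part of these cells in the member differences was not tested, and in such bulk RNA fewer cells of a type and less RNA per cell cannot be told apart.

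The largest differences within the family lay between the cell line and the tissue. Gpc6 and Sdc1 were far higher in MIN6, Gpc1 was higher by a smaller amount, and Sdc4 was far higher in islets. Of the 6 members tested, 5 had a mean of 4 or more in both systems, Sdc4 in MIN6 through its miR-7 arrays alone. Limma on 4 MIN6 against 2 islet arrays called 4 of these 5, 2 higher and 2 lower in MIN6. Sdc4 was among the 2 lower, and its call carries no weight. Limma called 67.5% of all 10634 genes (35.3% higher, 32.2% lower), so a call here is common and the sizes carry the description.

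Gpc6 averaged 9.06 ± 0.12 in MIN6 (SD, n = 4) and 3.07 ± 0.003 in islets (SD, n = 2) on 1428774_at, with a difference of 5.99. On 1419688_at and 1437417_s_at the differences were 5.37 and 4.81. All 3 probe sets were below 4 in islets, so the size of the fold is set by the background there, and no test is given because Gpc6 passed the filter on low values through its MIN6 arrays alone.

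Sdc1 averaged 9.71 ± 0.30 in MIN6 (SD, n = 4) and 6.13 ± 0.45 in islets (SD, n = 2), a 12.0-fold difference (3.59 ± 0.25 on the log2 scale, SE; limma, adjusted p = 4.95e-05). Its probe sets 1415943_at and 1415944_at were also higher in MIN6, by 4.51 and 1.26, with islet values below 4. Gpc1 averaged 8.12 ± 0.13 in MIN6 and 5.79 ± 0.34 in islets, a 4.996-fold difference (2.32 ± 0.16; limma, adjusted p = 5.11e-05). For these genes and Gpc6 every MIN6 array lay above both islet arrays, as for 39.7% of all genes.

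Sdc4 ran the other way, with every MIN6 array below both islet arrays, as for 36.5% of all genes. Its MIN6 arrays averaged 5.69 ± 1.40 (SD, n = 4) and its islet arrays 9.97 ± 0.26 (SD, n = 2) on 1417654_at, with a difference of -4.28. Without the WT array the difference was -4.10. No test is given, because Sdc4 reached 4 in MIN6 on its miR-7 arrays alone and the family was chosen on its values there. Within MIN6 the AdGFP array was the low one. The miR-7 arrays differed from WT islets by -3.76, 13.6-fold lower, and the AdGFP array, itself below 4, by -6.56. In order, the Sdc4 levels on this probe set were AdGFP, AdmiR7a, AdmiR7b, KO and WT, with the neighbours AdmiR7a and AdmiR7b not separated by the test above and the neighbours KO and WT untested. On 1448793_a_at the MIN6 arrays differed from the islet arrays by -2.82. There the order within both pairs of neighbours was reversed, with AdmiR7b (4.48) below the AdmiR7a mean (4.64) and WT (7.08) below KO (7.11).

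Sdc2 gave opposite answers from different probe sets. On 1417011_at it was lower in MIN6, at 8.67 ± 0.24 against 9.58 ± 0.03 in islets (-0.92; limma, adjusted p = 0.00323). On 1417012_at it was higher in MIN6, at 8.44 ± 0.07 against 7.33 ± 0.15 (1.11; limma over all probe sets, adjusted p = 0.000217), and on 1448545_at the difference was -0.02. No direction can therefore be given for Sdc2 as a gene.

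Gpc4 was close in both systems, at 10.56 ± 0.21 in MIN6 and 10.76 ± 0.37 in islets on 1421088_at, with a difference of -0.20 (95% interval -0.68 to 0.29; limma, adjusted p = 0.410). On 1436514_at the difference was -0.60 (limma over all probe sets, adjusted p = 0.0616). Sdc3, which entered no test, was at 2.94 ± 0.01 in MIN6 and 4.79 ± 0.17 in islets on 1450027_at.

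**Figure D3:**
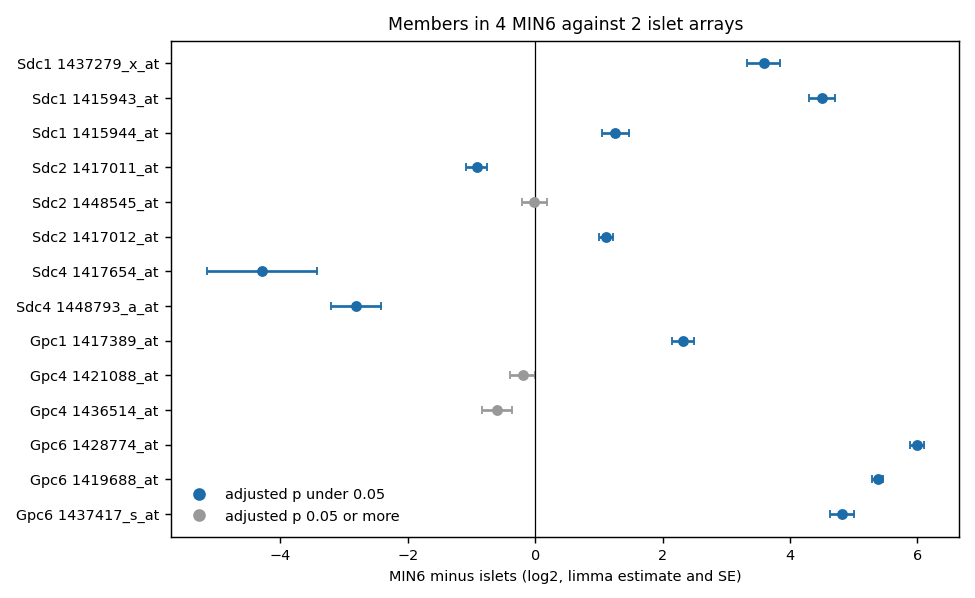
MIN6 minus islets (log2, horizontal axis) for the 14 member probe sets with a mean of at least 4 over the 6 arrays, as limma estimate with SE from 4 MIN6 and 2 islet arrays, fitted over all probe sets; blue points passed an adjusted p of 0.05. Of the 14, 8 were higher and 3 lower in MIN6, where 65.8% of 20796 probe sets were called. In islets 5 of the 8 were below 4, and both Sdc4 probe sets reached 4 in MIN6 on the miR-7 arrays alone. The calls of these 5 and of the Sdc4 probe sets carry no weight. The Sdc2 probe sets lie on both sides of 0.

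Markers of other islet cells moved with the contrast between the systems. The 6 endothelial markers averaged 3.36 to 3.65 in MIN6, against 8.31 in KO and 8.63 in WT islets, and 2 of them reached 4 on some MIN6 array. The 4 immune markers averaged 2.25 to 2.26 in MIN6, against 7.85 in KO and 7.67 in WT islets. Of the 6 stellate and fibroblast markers 0 were above 4 in MIN6 and 2 in islets, with Col1a1 at 2.18 on all arrays; of 3 measured acinar markers 0 were above 4 in MIN6 and 1 in islets. The hybridisation controls averaged 11.6 to 11.9 on the MIN6 arrays and 10.02 and 10.04 on the KO and WT islet arrays. The control probe sets for the 3′ and 5′ ends of Gapdh both read 14.5 to 14.7 on the MIN6 arrays. In islets the 3′ and 5′ values were 13.78 and 12.95 in KO and 13.61 and 12.92 in WT. For beta-actin the 3′ and 5′ values were apart in MIN6 too, at 14.9 to 15.0 and 13.4 to 13.6. In islets they were 14.59 and 11.94 in KO and 14.39 and 11.62 in WT. The part of these features in the member differences was not tested.

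Promoter sequences are shown for Sdc4 and Sdc1, the syndecans with opposite direction between MIN6 and islets. RefSeq (GRCm38.p6) gave a promoter for 5 of the 8 members. Each sequence holds the 250 bases before the transcription start, with matches to any of 4 motifs in capitals, on either strand. The motifs were the GC box GGGCGG, the CCAAT box CCAAT, the TATA box TATAAA and the E-box CACGTG.
Sdc4 (chr2:164443189-164443438, minus strand): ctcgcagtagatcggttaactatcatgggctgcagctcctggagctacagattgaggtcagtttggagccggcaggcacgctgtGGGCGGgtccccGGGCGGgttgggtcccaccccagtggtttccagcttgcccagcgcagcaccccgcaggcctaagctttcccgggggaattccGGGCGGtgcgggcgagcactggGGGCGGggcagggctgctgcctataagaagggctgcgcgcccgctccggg
Sdc1 (chr12:8771146-8771395, plus strand): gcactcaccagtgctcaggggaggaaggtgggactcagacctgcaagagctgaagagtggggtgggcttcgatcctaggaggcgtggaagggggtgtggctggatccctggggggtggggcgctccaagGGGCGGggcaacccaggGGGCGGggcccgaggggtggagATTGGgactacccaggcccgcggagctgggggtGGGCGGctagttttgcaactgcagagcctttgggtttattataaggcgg
The Sdc4 promoter held 4 GC boxes and the Sdc1 promoter 3 GC boxes and 1 CCAAT box. A GC box was found in 32.7% and a CCAAT box in 33.8% of 32851 mouse promoters of that length. TATAAA (in 12.4% of all promoters) and CACGTG (in 6.0%) were not found in these windows. The GC content of the 5 member promoters was 66.0% to 76.4%, against a median of 52.4% over all promoters. These are matches of letters, not binding sites.

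The genes most like Sdc4 over the 6 arrays were Tmprss2, a transmembrane serine protease gene, Sult1d1, a sulfotransferase gene, Gstt1, a glutathione transferase gene, Pbxip1 and Sowahb. Likeness was the root mean square difference (log2) over the 6 arrays after each gene was centred on its own mean, and it was 0.35 for Tmprss2 and 0.55 for Sowahb, against a median of 2.25 over the 11153 other genes compared. Tmprss2 read 5.05, 5.16 and 4.95 with the miR-7 vectors against 2.97 with AdGFP, and 8.08 in KO against 8.85 in WT islets. Gstt1 showed the profile well above background, at 8.19, 7.89 and 8.20 with the miR-7 vectors against 6.35 with AdGFP, and at 11.22 in KO and 11.53 in WT islets. AdGFP values of Sult1d1 (2.17), Pbxip1 (3.82) and Sowahb (3.29) were below 4, as for Sdc4. Sdc4 helped choose the family and these genes were ranked by their likeness to it, so the ranking is a description.

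**Figure D4:**
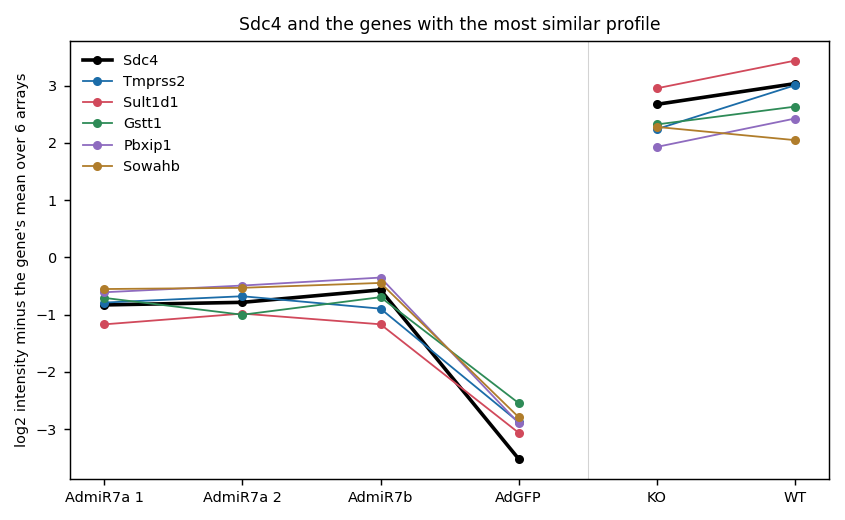
Log2 intensity minus the gene's mean over the 6 arrays (vertical axis) on each array (horizontal axis) for Sdc4 (black, probe set 1417654_at) and the 5 genes of smallest root mean square difference from it; lines join the arrays of a system for reading only. The 6 genes are lowest on AdGFP and highest in islets.

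The chains that the members carry are built, modified and cut by other genes, and 57 of 102 genes on a list of this pathway had a mean of at least 4 in MIN6. In limma on the 3 miR-7 arrays against AdGFP, 10 of the 57 rose and 15 fell, where 14.3% of all 10368 genes rose and 11.9% fell. With a filter at 6 the counts turned to 13 that rose and 10 that fell. AdGFP had 1 array, assumed to vary like the miR-7 arrays, so each call below rests on that array. The list's median was 0.02, against 0.06 over all genes. These calls need all 3 miR-7 arrays: limma called 0 genes, on the list or elsewhere, without the first AdmiR7a array (lowest adjusted p = 0.0650), the second (0.0772) or AdmiR7b (0.0667), with 3766 to 3889 genes at an unadjusted p under 0.05.

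Of 4 other core proteins measured, Cd44, a hyaluronan receptor that can carry heparan sulfate, fell to 5.32, 5.86 and 5.70 with the miR-7 vectors, against 6.89 with AdGFP (-1.27 ± 0.24; limma, adjusted p = 0.0327). Nrp1, a VEGF and semaphorin co-receptor, rose by 0.87 ± 0.11 (adjusted p = 0.0179). The perlecan gene Hspg2 (0.19, adjusted p = 0.440) and the agrin gene Agrn (-0.01, adjusted p = 0.959) did not pass, and Gpc2 and Gpc5 were at the floor on all 6 arrays.

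Of 11 genes of the linker and chain synthesis, 2 rose and 4 fell. Uxs1, which makes UDP-xylose, the first sugar donor of the linker, rose by 0.82 ± 0.08 (limma, adjusted p = 0.0136). Ugdh, which makes the UDP-glucuronate that Uxs1 uses, fell by 0.63 ± 0.12 (adjusted p = 0.0325), and Extl3, a glycosyltransferase of chain initiation, fell by 0.74 ± 0.13 (adjusted p = 0.0306).

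Of 11 genes of chain modification, 2 rose and 5 fell. The 3-O-sulfotransferase genes Hs3st3b1 and Hs3st6 fell by 1.54 ± 0.11 and fell by 0.95 ± 0.08 (limma, adjusted p = 0.0115 and 0.0127). Hs3st3b1 read 5.48, 5.30 and 5.46 with the miR-7 vectors, against 6.96 with AdGFP, with no miR-7 array near the AdGFP value. Glce, the glucuronyl C5-epimerase, fell by 0.97 ± 0.10 (adjusted p = 0.0146).

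Of 10 genes of chain and core cleavage, 1 rose and 1 fell. Sulf2, an extracellular sulfatase that removes 6-O-sulfate from the chains, rose to 9.01, 8.96 and 9.38 with the miR-7 vectors, against 7.80 with AdGFP (1.31 ± 0.20; limma, adjusted p = 0.0231). The heparanase gene Hpse fell by 0.83 ± 0.18 (adjusted p = 0.0440). Among 11 cytoplasmic partners 2 rose and 0 fell. They were Nudt16l1, which encodes syndesmos, a binding partner of the Sdc4 tail (0.65 ± 0.07, adjusted p = 0.0146), and Prkca, which encodes protein kinase C alpha (0.47 ± 0.10, adjusted p = 0.0434).

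Of 10 ligands and receptors, 2 rose and 4 fell, Shh among the 4. The hedgehog ligand gene Shh read 3.63 to 3.82 with the miR-7 vectors, against 5.12 with AdGFP, and passed the filter through the AdGFP array alone, so its call carries no weight. The chemokine gene Cxcl12 fell by 1.22 ± 0.18 (limma, adjusted p = 0.0214), and Wnt5b rose by 1.15 ± 0.08 (adjusted p = 0.0119).

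**Figure D5:**
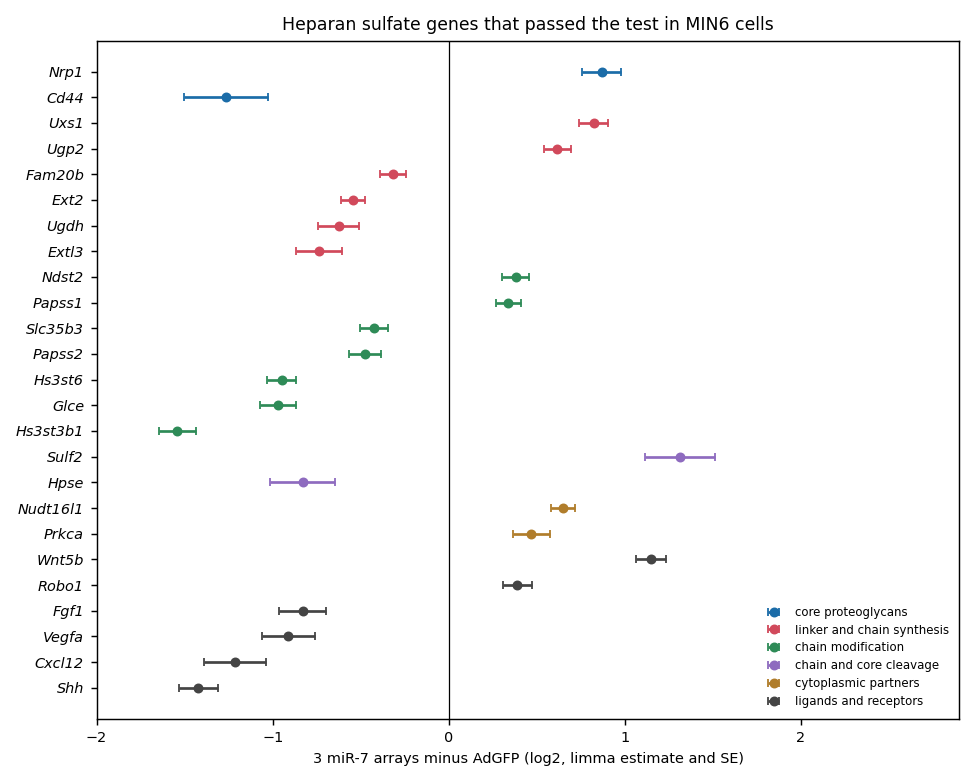
Mean of the 3 miR-7 arrays minus the AdGFP array (log2, horizontal axis; limma estimate with SE) for the 25 genes of the heparan sulfate list that passed the test, coloured by role. The list has 10 genes right of 0 and 15 left of it, from Hs3st3b1 (-1.54) to Sulf2 (1.31).

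In KO against WT islets, 0 of 62 measured genes of the list passed a log2 size of 1, where 2.65% of all genes did, and the list's median was 0.01, against -0.03 over all genes. Between MIN6 and islets 17 of 61 were higher and 20 lower in MIN6, where 35.3% of all genes were higher and 32.2% lower; 3 of the 17 and 5 of the 20 were below 4 on their low side. By role, the genes most raised in MIN6 were Wnt5a (8.34 ± 0.09 in MIN6 against 3.19 ± 0.01 in islets), the Rac activator gene Tiam1 (8.26 ± 0.07 against 4.51 ± 0.39), Hs3st3b1 (2.66 higher), Sulf2 (2.27 higher) and B3gat3 (0.39 higher). Those most lowered in MIN6 were Wnt4 (4.91 ± 0.27 in MIN6 against 12.62 ± 0.04 in islets), Srgn, the core protein of blood cell granules (2.26 ± 0.08 against 9.82 ± 0.17), Prkcd (-2.98), Hgsnat (-1.76), Ugdh (-1.53) and Glce (-1.47). Wnt5a, Hs3st3b1, Srgn and Prkcd passed the filter through their high side alone, and their values are a description. The adjusted p of the other genes in limma lay between 3.19e-07 and 0.0247.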

How the data were processed

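The authors deposited probe set intensities on a log2 scale; per the submitters' processing notes the authors used GCRMA and the affy package, without versions, and GCRMA corrects background from probe sequence and quantile-normalizes. Whether other arrays were normalized together with these is not given in the sources used here. Upper quartiles were 7.95 to 8.01, and medians 2.98 to 3.01 in MIN6 and 3.29 to 3.33 in islets. Of 45101 probe sets, 34945 carried 1 symbol in the platform annotation; symbols were updated through RefSeq (GRCm38.p6). Each gene was read from its brightest probe set over the arrays compared, and genes with a mean under 4 were left out.

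Limma 3.58.1 in R 4.3.3 was fitted over all genes, two-sided, with Benjamini-Hochberg adjustment at 0.05. The fits were miR-7 (3 arrays) against AdGFP (1), AdmiR7b against AdmiR7a, and MIN6 (4) against islets (2). The first borrows the spread of the miR-7 arrays for AdGFP. KO and WT had 1 array each and no test. The fits were tested on simulated data. The labels do not say whether the AdmiR7a arrays came from separate cultures, so p-values measure the spread between arrays, which may be technical. In MIN6 against islets that spread also holds the differences between vectors and between genotypes. Members and lists were chosen with earlier results of these data known. Named were all members; per list group, the 3 largest changes that passed with miR-7 and the largest in each direction between systems, with the higher side at 5 or more; and the 5 genes nearest Sdc4. Hspg2, Agrn, Gpc2 and Gpc5 were named after their values were seen. Alternatives were the filter, the probe set rule, fits per probe set, normalization, a variance trend, arrays left out and, between MIN6 and islets, a mean per vector and genotype. The number of arrays limits the precision.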

Additional observations from a re-analysis of the deposited data

How the results depend on the processing

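Sdc4 with miR-7 in MIN6 kept its direction under each alternative that gave it a value (a filter at 6 left it out), at 2.79 as reported, 2.00 with the mean of its probe sets, 1.22 on its other probe set (chosen after seeing the data) and 2.71 to 2.84 with single miR-7 arrays left out. Without a filter on low values 427 genes were called higher and 554 lower with miR-7, in place of 1480 and 1236, and 5 heparan sulfate genes rose and 3 fell, in place of 10 and 15; with a filter at 6, 13 rose and 10 fell; with single miR-7 arrays left out all 4 counts were 0 to 0. Between MIN6 and islets, 3 members, Gpc6 included, were higher and 2 lower; 1 was lower with averaged probe sets and 1 without the WT array, and the range over single arrays left out was 1 to 2. The calls of Gpc6, among the 3 higher, and of Sdc4, among the 2 lower, carry no weight. With a mean per vector and genotype the differences were 3.56 for Sdc1 and 2.33 for Gpc1, in place of 3.59 and 2.32. That fit takes its spread from the AdmiR7a arrays alone, and its adjusted p in limma was larger for both genes. Fitted by probe set, 7292 probe sets were higher and 6391 lower in MIN6. With averaged probe sets Sdc2 turned to 0.045 between MIN6 and islets and to 0.071 between AdmiR7b and AdmiR7a, and without the KO or WT array Gpc4 ranged from -0.46 to 0.067 between MIN6 and islets. At least 1 (log2) apart in KO islets were 81 genes upward and 53 downward with a filter at 6, 212 downward with no filter and 74 downward with averaged probe sets, in place of 144 and 136. The causes were not tested. No gene was called between the vectors under the alternatives that kept both AdmiR7a arrays; without one of them no test could be made. No paired analysis was possible because the groups compared share fewer than 2 replicate numbers.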
